A study of Mus musculus with 6 samples.

Results

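The genes described here make cholesterol and fatty acids, control that synthesis through the SREBP transcription factors, or move sterols within and out of cells. Of 34 listed genes, 32 were measured, among 18193 genes measured in all. The list was drawn up by function, and each gene was read from its brightest probe set (by the 6-array mean) among those annotated with that symbol alone. Acat2 and Soat1 had no such probe set and were not analysed here. The list was compared between E-FABP deficient (EKO) mice and wild type (WT) mice, 3 of each, with 1 Affymetrix array for each biological replicate. EKO and WT tumours below stand for these samples in the order of replicates 1, 2 and 3. Both groups of mice had been treated with DMBA/TPA for 5 months, DMBA being the mutagen that starts skin tumours and TPA the phorbol ester that promotes them. Skin tumours were digested to single cells before RNA was extracted. The labels name the cells keratinocytes and the study's design text names them tumour cells. The sources used here do not give the strain, sex or age of the mice, or the allele behind the deficiency.

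All values are log2 signals, and a difference is EKO minus WT on that scale. Signals of different probe sets cannot be compared with each other, so levels are compared only within a gene. Fabp5, which encodes E-FABP, had log2 values of 8.20, 8.30 and 7.98 in EKO replicates 1, 2 and 3, against 14.82, 14.94 and 14.80 in WT replicates 1, 2 and 3, a difference of -6.69 (SE 0.108, limma adjusted p = 1.04e-06), and every array fitted its label. Keratinocyte markers, 7 of 8 measured, had a mean log2 value of 13.22 to 13.51 in the EKO arrays and 13.33 to 13.45 in the WT arrays. The array medians lay between 5.41 and 5.43. In bulk RNA of this kind, fewer cells of a type and less RNA per cell cannot be told apart.

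Cells build cholesterol from acetyl-CoA through mevalonate, isoprenoids, squalene and lanosterol. SREBP2, encoded by Srebf2, mainly switches on the genes of that route, and SREBP1, encoded by Srebf1, mainly those of fatty acid synthesis. Both are carried by Scap from the endoplasmic reticulum for cleavage when sterols are low, and the Insig proteins hold them back when sterols are plentiful. In the epidermis, cholesterol and fatty acids are components of the barrier lipids, and sebaceous glands make large amounts of lipid.

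Sterol and fatty acid synthesis genes had slightly lower means in EKO tumours, and no gene of the list passed the test. Of the 32 measured genes, 25 had a lower mean in EKO tumours and 7 a higher one, where 50% of all genes were lower. The 32 genes were read in the same 6 tumours, so such counts are not of independent readings. The median log2 difference was -0.12 over the list and 0.00014 over all genes. The EKO tumours differed among themselves, with replicates 1 and 3 at the low end for most of these genes and replicate 2 the highest of the 6 arrays for 10 of the 32. In limma, a linear model with moderated variances fitted over all genes and Benjamini-Hochberg adjustment at 0.05, 0 of the 32 passed, and 0.0055% of all genes did, a share made up of Fabp5 alone. At an unadjusted p under 0.05, 3 of the 32 stood lower and 0 higher in EKO tumours, 9.38% of the list against 7.13% of all genes (3.7% lower and 3.44% higher). All 3 are enzymes of the sterol pathway: Msmo1, Sc5d and Sqle. With the mean over a gene's probe sets in place of the brightest one, 2 were lower, Sqle and Abca1, and 1 higher, Abcg1, against 7.23% of all genes. Msmo1, then at -0.22, and Sc5d, then at -0.14, were not among them. The Abca1 mean took in a probe set that lay below the lower quartile in every array. The EKO and WT values did not overlap for 4 of the 32, against 12% of all genes. No 95% interval of a difference in the list reached beyond -0.80 on the lower side or 0.47 on the higher side. Each interval takes its gene alone, without adjustment over genes.

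**Figure D1:**
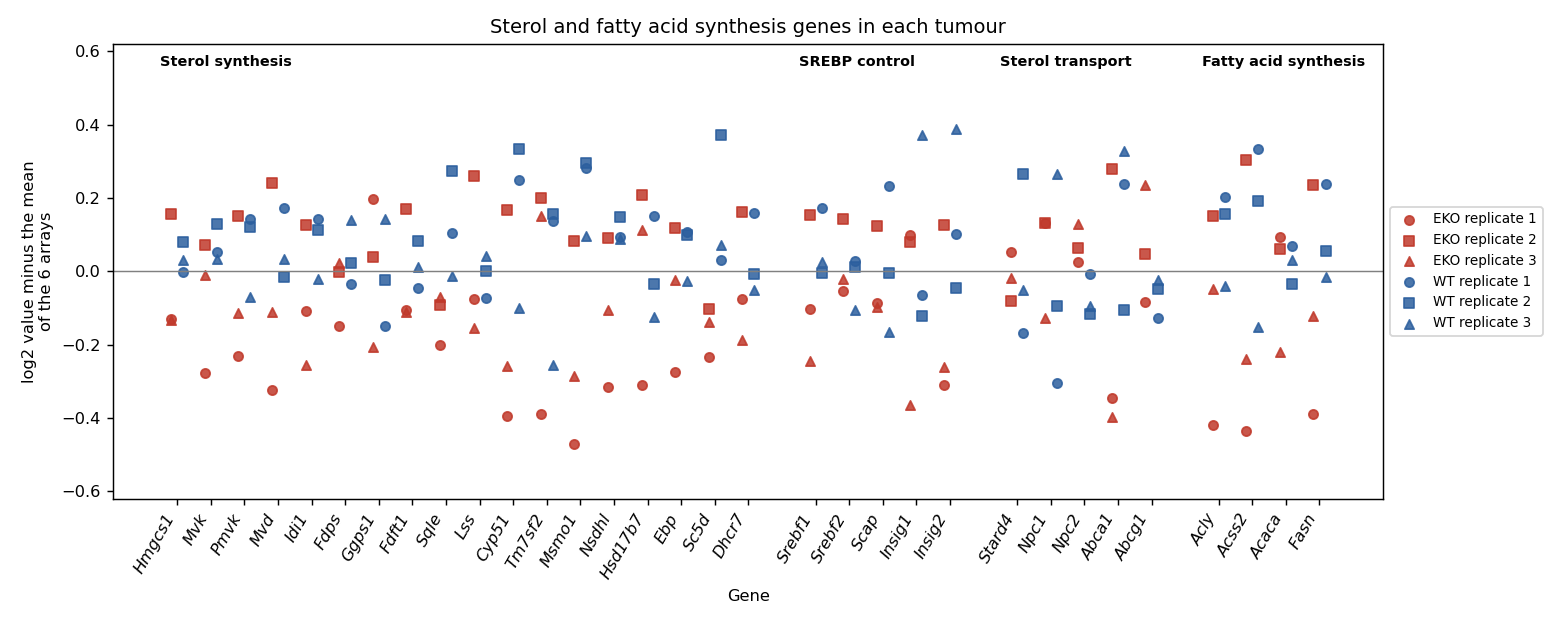
Log2 value of each of the 32 measured genes in each array, less that gene's mean over the 6 arrays, by step of the pathway; red is EKO, blue is WT, and the symbol's shape is the replicate number. For most sterol synthesis genes EKO replicates 1 and 3 are below 0, while EKO replicate 2 is the highest array for 9 of the 18.

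On the early route to squalene no gene separated the groups by its brightest probe set, and all these differences lay between -0.16 and 0.02. A further probe set of Hmgcs1, at -0.43, did separate them. So did a further one of Fdps, on the higher side at 0.10, though it lay below the lower quartile in every array. Hmgcs1, the synthase that makes HMG-CoA, had log2 values of 12.73, 13.02 and 12.73 in EKO replicates 1, 2 and 3, against 12.86, 12.94 and 12.89 in the WT replicates. EKO replicate 2 was the highest of the 6 arrays and the other EKO values were the lowest, so the groups overlapped (difference -0.07, 95% interval -0.32 to 0.18). Mvk and Pmvk, the kinases that phosphorylate mevalonate, had differences of -0.14 and -0.13, and Mvd, which decarboxylates the product to an isoprenoid unit, had one of -0.13. Idi1, the isomerase of that unit, averaged 12.32 ± 0.193 in EKO and 12.48 ± 0.0863 in WT tumours (mean ± SD, n = 3 each; difference -0.16, SE 0.118). Fdps, which joins the units to farnesyl diphosphate, had a difference of -0.09. Ggps1, which leads to geranylgeranyl diphosphate on a side branch used for protein prenylation, had one of 0.02. Fdft1, squalene synthase, had one of -0.03. The limma adjusted p of these 8 genes ran from 0.817 for Idi1 to 0.986 for Ggps1.

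The later steps, which turn squalene into cholesterol, held the 5 largest differences of the route, beside 3 of the 4 smallest. Msmo1, a monooxygenase that removes methyl groups from sterols, had log2 values of 11.65, 12.20 and 11.83 in EKO replicates 1, 2 and 3, against 12.40, 12.42 and 12.21 in WT replicates 1, 2 and 3. Every EKO value lay below every WT value, although EKO replicate 2 was nearly level with WT replicate 3. The difference was -0.45 (SE 0.151, 95% interval -0.80 to -0.09), that is 0.732 times the WT signal, with an unadjusted p of 0.0201 and a limma adjusted p of 0.63.

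Sc5d, a sterol desaturase near the end of the route, had log2 signals of 10.30, 10.43 and 10.40 in the EKO tumours, against 10.57, 10.91 and 10.61 in the WT tumours. The EKO values lay close together and below all WT values, and WT replicate 2 stood highest (difference -0.32, SE 0.113, unadjusted p = 0.0267, limma adjusted p = 0.653). Sqle, the squalene epoxidase that opens this part of the route and is one of its control points, had log2 signals of 11.15, 11.26 and 11.28 in the EKO tumours, against 11.46, 11.63 and 11.34 in the WT tumours. The groups again did not overlap, with EKO replicate 3 and WT replicate 3 closest (difference -0.24, SE 0.102, unadjusted p = 0.048, limma adjusted p = 0.698). By the brightest probe sets, these were the 3 synthesis genes of 18 whose groups did not overlap on the lower side, where 6.19% of all genes did so. On the higher side 0 of the 18 did so, where 5.78% of all genes did. A further, dimmer probe set of Lss, at 0.20, did separate the groups on the higher side.

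Cyp51, the demethylase that acts on lanosterol, averaged 10.84 ± 0.292 in EKO and 11.16 ± 0.229 in WT tumours (mean ± SD, n = 3 each), a difference of -0.32 whose interval ran from -0.74 to 0.10. Nsdhl, a dehydrogenase that works with Msmo1 in removing methyl groups, averaged 9.20 ± 0.205 and 9.42 ± 0.0335 in EKO and WT tumours (difference -0.22, 95% interval -0.49 to 0.05). Hsd17b7, the reductase that completes that demethylation, had a difference of 0.01 (95% interval -0.36 to 0.37). Lss, which closes squalene epoxide into lanosterol, had a difference of 0.02, Tm7sf2, a sterol reductase, -0.03, Ebp, a sterol isomerase, -0.12, and Dhcr7, the reductase that yields cholesterol, -0.07. Over the 18 synthesis genes 15 had a lower mean in EKO tumours and 3 a higher one, with a median of -0.12.

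Because SREBP works at promoters together with NF-Y, short promoter windows of the list were read from RefSeq (GRCm38.p6), from 250 bases before to 50 after each start. Of the 32 measured genes, 26 had an entry. Fdps, Fdft1, Sqle, Stard4, Npc1 and Abcg1 had none. The motifs searched, on both strands, were the sterol response element core TCACNCCAC, the NF-Y box CCAAT, the Sp1 box GGGCGG and the E-box CACGTG. NF-Y boxes on opposite strands can overlap, and the other motifs were counted separately wherever they lay. The NF-Y box was found in 23 of 26 genes, among them all 15 synthesis genes with an entry, and in 42% of the 14452 measured genes with a promoter. The Sp1 box was found in 22 of 26 genes and in 57.3% of those 14452. The E-box was found in 6 of 26 and in 10.2%, and the sterol core in 1 of 26, Hmgcs1, and in 1.46%. Of all 32851 promoters in the table, measured or not, 37.4% held the NF-Y box, 35.7% the Sp1 box, 7.15% the E-box and 1.24% the sterol core. These are matches of letters in a short window and say nothing of binding.

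Shown here are the promoter with the sterol core, Hmgcs1, and those of Msmo1 and Sc5d, which had no overlap between the groups. Each runs 5′ to 3′ in the direction of its gene, with capitals for the sterol core and for NF-Y boxes on either strand. Hmgcs1 lies on the plus strand at chr13:119690101-119690400 and holds 4 NF-Y boxes. Its sterol core starts 137 bases before the gene's start. Msmo1 lies on the minus strand at chr8:64733529-64733828 and holds 3 NF-Y boxes, and Sc5d lies on the minus strand at chr9:42264251-42264550 and holds 1.
Hmgcs1: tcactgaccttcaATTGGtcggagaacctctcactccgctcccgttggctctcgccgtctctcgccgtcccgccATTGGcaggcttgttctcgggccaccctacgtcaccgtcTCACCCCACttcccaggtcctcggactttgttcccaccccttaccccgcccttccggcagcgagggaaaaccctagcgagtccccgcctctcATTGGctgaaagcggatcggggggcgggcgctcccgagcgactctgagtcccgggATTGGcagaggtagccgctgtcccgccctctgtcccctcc
Msmo1: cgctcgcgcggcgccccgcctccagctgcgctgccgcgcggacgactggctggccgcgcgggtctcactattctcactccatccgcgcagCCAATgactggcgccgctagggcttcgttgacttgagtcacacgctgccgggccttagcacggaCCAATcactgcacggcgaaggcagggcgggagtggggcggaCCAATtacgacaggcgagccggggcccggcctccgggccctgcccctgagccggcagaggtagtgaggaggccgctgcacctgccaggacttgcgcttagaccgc
Sc5d: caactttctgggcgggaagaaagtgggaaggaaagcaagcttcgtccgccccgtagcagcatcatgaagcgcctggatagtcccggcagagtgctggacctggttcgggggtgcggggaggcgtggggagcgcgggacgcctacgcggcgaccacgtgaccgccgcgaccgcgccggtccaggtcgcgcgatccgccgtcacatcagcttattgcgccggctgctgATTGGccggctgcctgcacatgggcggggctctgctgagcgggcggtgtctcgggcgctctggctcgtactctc
The difference was -0.07 for Hmgcs1, although another Hmgcs1 probe set gave -0.43, and it was -0.45 for Msmo1 and -0.32 for Sc5d. Msmo1 and Sc5d are shown because their groups did not overlap, so the 3 differences cannot be read against the motifs.

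**Figure D2:**
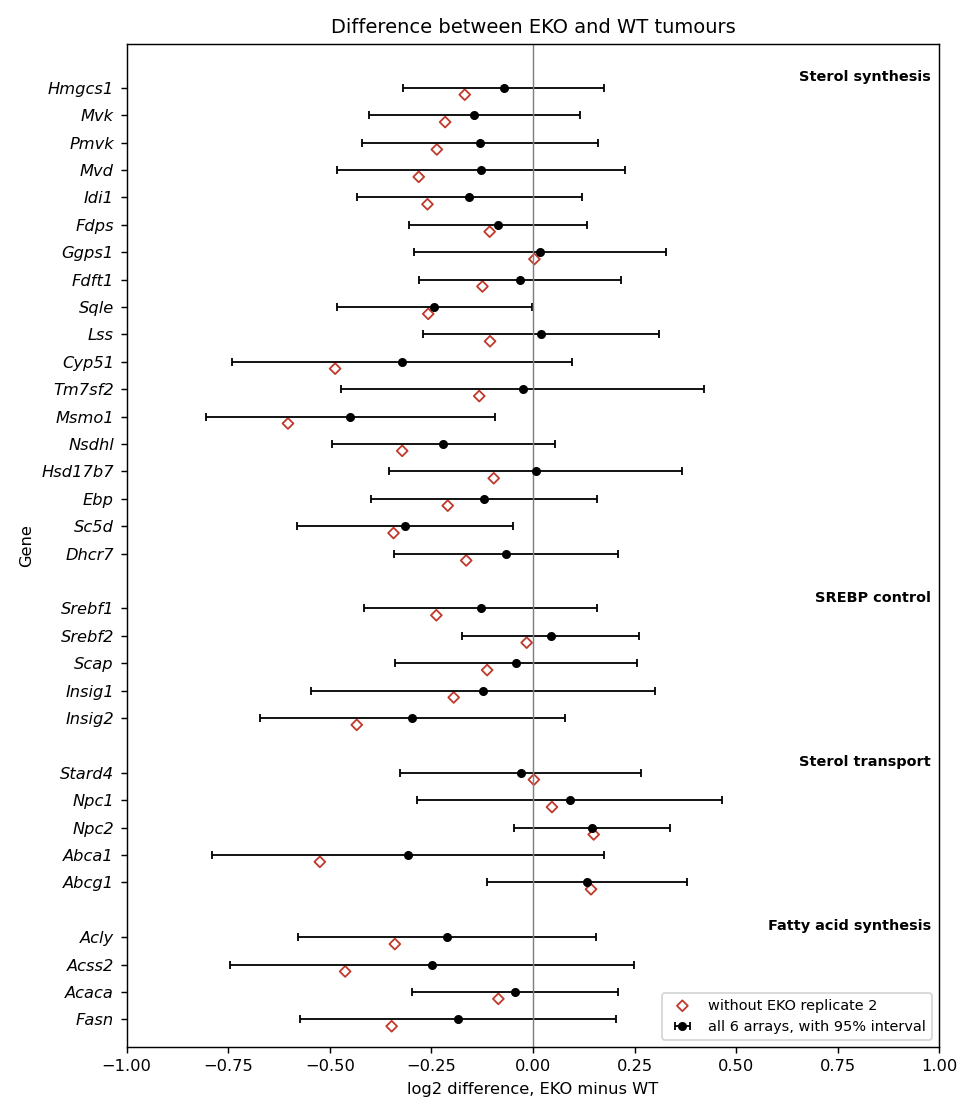
Log2 difference of each gene, EKO minus WT, with its 95% interval (black, all 6 arrays) and the same difference with EKO replicate 2 left out (open red diamonds), by step. Only Sqle, Msmo1 and Sc5d have intervals clear of 0 with all arrays, and most synthesis genes lie further to the left without EKO replicate 2.

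The transcription factors and their regulators had small differences. Srebf2 had log2 values of 8.18, 8.37 and 8.21 in EKO replicates 1, 2 and 3, against 8.26, 8.24 and 8.13 in the WT replicates. The values interleaved, and the difference was 0.04 (95% interval -0.17 to 0.26, limma adjusted p = 0.936). Srebf1 had log2 signals of 9.43, 9.68 and 9.29 in the EKO tumours, against 9.70, 9.53 and 9.56 in the WT tumours. EKO replicates 1 and 3 were the lowest, but EKO replicate 2 exceeded WT replicates 2 and 3 (difference -0.13, 95% interval -0.42 to 0.16, limma adjusted p = 0.851). The difference of Scap was -0.04.

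The Insig genes, whose proteins retain Scap, differed more between tumours. Insig1 is itself a target of SREBP, and its values were 9.34, 9.32 and 8.88 in the EKO replicates, against 9.18, 9.12 and 9.61 in the WT replicates. EKO replicate 3 was the lowest and WT replicate 3 the highest, with the others between (difference -0.12, limma adjusted p = 0.903). Insig2 had log2 signals of 10.33, 10.77 and 10.38 in the EKO tumours, against 10.74, 10.60 and 11.03 in the WT tumours. Here EKO replicates 1 and 3 were lowest and EKO replicate 2 lay within the WT range (difference -0.30, SE 0.159, unadjusted p = 0.104, limma adjusted p = 0.756). Of the 5 control genes 4 had a lower EKO mean, and the median of the 5 was -0.12.

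Among the sterol transport genes 3 of 5 had a higher mean in EKO tumours, and the median was 0.09, though -0.0398 without WT replicate 1. Skeletal muscle markers, 4 of 4 measured, had mean log2 values of 6.19 to 7.35 in EKO and 6.04 to 9.39 in WT arrays, with WT replicate 1 the highest. All 4 had a lower mean in EKO tumours, 0 with an unadjusted limma p under 0.05, and their part in the transport values was not tested. Npc2, the lysosomal protein that hands cholesterol to Npc1, had log2 signals of 11.80, 11.84 and 11.90 in the EKO tumours, against 11.77, 11.66 and 11.68 in the WT tumours. Every EKO value exceeded every WT value, by a narrow margin at EKO replicate 1 and WT replicate 1 (difference 0.15, SE 0.0813, unadjusted p = 0.117, limma adjusted p = 0.76). By the brightest probe sets, Npc2 was the 1 gene of the list without overlap on the higher side. A further, dimmer Npc2 probe set, at -0.15, separated the groups on the lower side. Npc1, the membrane partner of Npc2, had a difference of 0.09 and Stard4, a cytosolic sterol carrier, one of -0.03.

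The exporters Abca1 and Abcg1, both targets of the oxysterol receptor LXR, had means on opposite sides. Abca1, which loads cholesterol onto apolipoproteins, had log2 signals of 9.99, 10.62 and 9.94 in the EKO tumours, against 10.58, 10.23 and 10.67 in the WT tumours. EKO replicates 1 and 3 were the lowest of the 6 and EKO replicate 2 the second highest (difference -0.31, 95% interval -0.79 to 0.18, limma adjusted p = 0.799). Abcg1, which loads lipoprotein particles, had log2 signals of 8.99, 9.12 and 9.31 in the EKO tumours, against 8.95, 9.03 and 9.05 in the WT tumours (difference 0.13, limma adjusted p = 0.823). Both of its highest values were from EKO tumours, yet EKO replicate 1 lay within the WT range. Macrophages express these exporters strongly. Macrophage markers, 11 of 11 measured, had a mean log2 value of 7.42 to 7.99 in EKO and 7.90 to 8.28 in WT arrays. Of the 11, 10 were lower in EKO tumours, where 50% of all genes were lower. At an unadjusted limma p under 0.05, 4 of the 11 stood lower, against 3.7% of all genes. After adjustment 0 passed, against 0.0055% of all genes. None of these markers was below the lower quartile of its array throughout. Their part in the values of Abca1 and Abcg1 was not tested.

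All 4 fatty acid synthesis genes had lower means in EKO tumours, with a median of -0.20, and none separated the groups by its brightest probe set. Acly, which makes cytosolic acetyl-CoA from citrate, had log2 signals of 11.17, 11.74 and 11.54 in the EKO tumours, against 11.79, 11.75 and 11.55 in the WT tumours (difference -0.21, limma adjusted p = 0.816). EKO replicate 1 stood well below the other 5 arrays. Another Acly probe set of like brightness gave a difference of -0.01, with overlap. A dimmer one gave -0.56, without overlap, and the remaining ones lay below the lower quartile in every array. Acss2, which makes acetyl-CoA from acetate, had log2 signals of 7.85, 8.59 and 8.05 in the EKO tumours, against 8.62, 8.48 and 8.14 in the WT tumours (difference -0.25, limma adjusted p = 0.834). EKO replicate 2 was near the top of the WT range and the other EKO values were below it. Fasn, the fatty acid synthase, had log2 signals of 9.65, 10.28 and 9.92 in the EKO tumours, against 10.28, 10.10 and 10.03 in the WT tumours (difference -0.18, limma adjusted p = 0.839). The order of the EKO tumours was the same as for Acss2. Acaca, the acetyl-CoA carboxylase that feeds Fasn, had a difference of -0.04 with a 95% interval from -0.30 to 0.21.

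The mean deviation of each step from the 6-array mean showed how the tumours ranked. For sterol synthesis it was -0.22, 0.11 and -0.10 in EKO replicates 1, 2 and 3, against 0.08, 0.12 and 0.0016 in WT replicates 1, 2 and 3. For fatty acid synthesis it was -0.29, 0.19 and -0.16 in the EKO replicates, against 0.21, 0.09 and -0.04 in the WT replicates. On both measures EKO replicates 1 and 3 were the lowest arrays and EKO replicate 2 lay within the WT range. For SREBP control the values were -0.09, 0.13 and -0.20 in the EKO replicates, against 0.09, -0.03 and 0.10 in the WT replicates. For sterol transport they were -0.04, 0.09 and -0.04 in the EKO replicates, against -0.07, -0.02 and 0.08 in the WT replicates. For transport, the lowest array was WT replicate 1.

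EKO replicate 1 was the lowest of the 6 arrays for 12 of the 18 synthesis genes and EKO replicate 3 for the remaining 6, while EKO replicate 2 was the highest for 9. Over all genes the share with the lowest value was 17.3% for EKO replicate 1 and 17.5% for EKO replicate 3, and the share with the highest value was 13.5% for EKO replicate 2. The SD among EKO tumours exceeded that among WT tumours for 25 of the 32 genes, 78.1%, where it did so for 52.8% of all genes. This count, too, is over genes read in the same 6 tumours. The median SD of the 32 genes was 0.197 in EKO and 0.114 in WT tumours.

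Sebaceous gland markers gave a like order of the EKO tumours, but not of the WT tumours. Of 6 listed, 3 were measured, Mc5r, Elovl3 and Cidea, and their mean log2 value was 8.72, 9.88 and 9.20 in EKO replicates 1, 2 and 3, against 10.01, 9.38 and 9.69 in WT replicates 1, 2 and 3. EKO replicates 1 and 3 were again the lowest and EKO replicate 2 lay within the WT range. WT replicate 2 was the lowest WT array here and the highest of the 6 arrays for sterol synthesis. All 3 had a lower mean in EKO tumours and 0 had an unadjusted limma p under 0.05, and none was below the lower quartile of its array throughout. Elovl3 and Cidea are also expressed in brown fat. Keratinocyte markers gave the same order of the EKO tumours, at 13.22, 13.51 and 13.36 in EKO replicates 1, 2 and 3. Their values were 13.33, 13.45 and 13.35 in WT replicates 1, 2 and 3, with WT replicate 2 the highest WT array. EKO replicate 3 was above WT replicates 1 and 3 for the keratinocyte markers. Adipocyte markers, 4 of 6 measured, had mean log2 values of 6.22 to 7.19 in EKO and 5.95 to 7.71 in WT arrays. Proliferation markers, 3 of 4 measured, had 10.65 to 10.79 in EKO and 10.72 to 10.92 in WT arrays. All 4 adipocyte and all 3 proliferation markers also had lower means in EKO tumours, 0 with an unadjusted limma p under 0.05. The part of keratinocytes or of sebaceous, fat or dividing cells in the lower synthesis values was not tested.

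**Figure D3:**
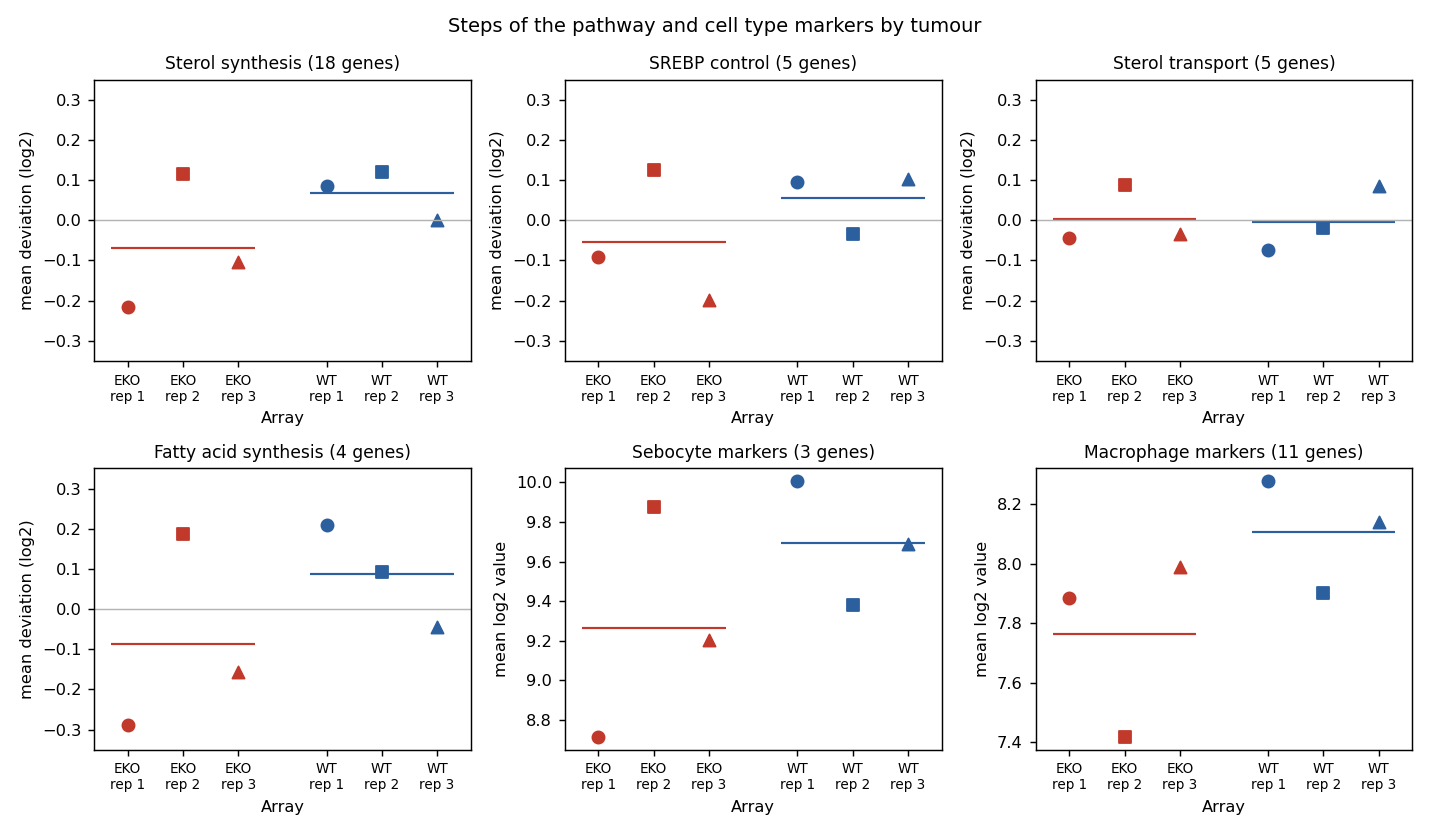
Mean deviation of each step from the 6-array mean, in log2 units, and mean log2 value of the sebocyte and macrophage markers, by array; red is EKO, blue is WT, symbols give the replicate and horizontal lines the group means. The sterol synthesis, fatty acid synthesis and sebocyte panels share the low position of EKO replicates 1 and 3, while the macrophage markers are lowest in EKO replicate 2.

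Leaving out each array in turn changed the counts mainly through EKO replicate 2. That array was the highest of the 6 for 10 of the 32 genes, so leaving it out lowered their EKO means by construction. The counts without it are thus no separate support for a difference. Without EKO replicate 2, 9 of the 32 genes had an unadjusted p under 0.05, all lower in EKO tumours. That was 28.1% of the list against 9.06% of all genes (4.18% lower). They were Msmo1, Cyp51, Nsdhl, Sc5d and Idi1 of sterol synthesis, Insig2, Abca1, Acss2 and Fasn. The groups then did not overlap for 20 of the 32, 19 lower and 1 higher, against 24.9% of all genes (12.2% lower). The medians were -0.21 for sterol synthesis and -0.34 for fatty acid synthesis. The largest difference was that of Msmo1, -0.60 (SE 0.117, limma adjusted p = 0.182, with 0.182 to 0.998 over its alternatives). The limma threshold was still passed by 0 of the 32, against 0.231% of all genes. With EKO replicate 1, EKO replicate 3 or WT replicate 2 left out, 0 of the 32 had an unadjusted p under 0.05, while the share of all genes was 5.05%, 6.4% and 5.91% in that order. Without WT replicate 1 the count was 1, against 4.61% of all genes, and without WT replicate 3 it was 4, against 9.9%.

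**Figure D4:**
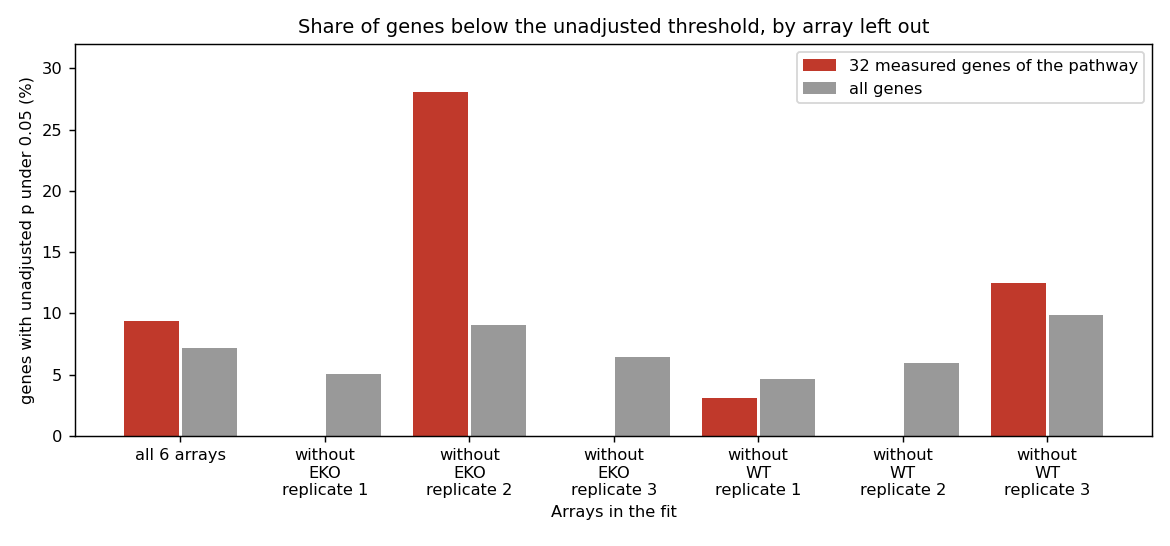
Share of the 32 genes (red) and of all genes (grey) with an unadjusted limma p under 0.05, with all 6 arrays and with each array left out. The share of the list reaches 28.1% without EKO replicate 2 and is 0 without EKO replicate 1, EKO replicate 3 or WT replicate 2.

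Most listed genes had more than 1 probe set, which gave a further reading of the same RNA. The 32 genes had 76 probe sets, 22 genes having several. Of the 44 further probe sets, 27 had the sign of the main one. With all probe sets in the fit, 8 of the 76 had an unadjusted limma p under 0.05, against 7.43% of all 34945 probe sets with 1 symbol, and 0 passed after adjustment, against 0.00572%. Beside the main probe sets of Msmo1, Sc5d and Sqle, these were further ones of Hmgcs1 (-0.43), Insig2 (-0.51), Abca1 (-0.70), Acly (-0.56) and Abcg1 (0.26).

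For Insig2 all 3 probe sets had lower EKO means, and for Abca1 all 3 did too, though the dimmest Abca1 one lay below the lower quartile in every array. The Abca1 probe set at -0.70 had log2 signals of 4.35, 5.05 and 4.69 in the EKO tumours, against 5.76, 5.23 and 5.18 in the WT tumours. Its groups did not overlap, but it was below the array median in every array but WT replicate 1. The further Abcg1 probe set had 5.66, 5.65 and 5.70 in the EKO tumours, against 5.39, 5.50 and 5.35 in the WT tumours, also without overlap. The 5 Hmgcs1 probe sets ran from -0.43 to -0.07, all lower in EKO tumours. Msmo1 had a further, dimmer probe set with a difference of 0.01, and the 2 further probe sets of Sc5d had differences of -0.04 and -0.05, so these did not show the separation of the main probe sets. Sqle had a single probe set. The 4 Npc2 probe sets ran from -0.15 to 0.15 and did not share a direction.

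A wider set of 44 genes around the pathway was also read, of which 41 were analysed here. None passed the limma threshold, 14 had a higher and 27 a lower mean in EKO tumours, and the median was -0.11. At an unadjusted p under 0.05, 1 was higher and 3 lower of the 41, against 3.44% of all genes higher and 3.7% lower. The groups did not overlap for 7 of 41, against 12% of all genes. The isoprenoid branch (9 genes, median -0.01) held Rabggtb, a prenyltransferase subunit, at -0.20 and without overlap, and Nus1, of dolichol synthesis, at -0.11. The genes of SREBP processing (8 genes, median -0.0028) held Mbtps2, a protease that releases SREBP from the membrane, at 0.12 and without overlap, and Tmem97, a sterol-regulated membrane protein, at -0.18.

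Sterol handling (14 genes) had a median of -0.27, with 10 genes lower and 4 higher by their means. Lpcat3, a phospholipid acyltransferase and LXR target, had log2 signals of 9.31, 9.98 and 9.60 in the EKO tumours, against 10.40, 9.97 and 10.07 in the WT tumours (difference -0.51, SE 0.19, unadjusted p = 0.0304, limma adjusted p = 0.659). Cyp7b1, an oxysterol hydroxylase, had 8.61, 8.54 and 8.33 in the EKO tumours, against 9.29, 9.37 and 8.52 in the WT tumours (difference -0.57, SE 0.224, limma adjusted p = 0.677). The groups overlapped for both genes: EKO replicate 2 just exceeded WT replicate 2 for Lpcat3, and WT replicate 3 lay among the EKO values for Cyp7b1.

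The genes that supply or use fatty acid synthesis (10 genes) had a median of -0.21, with 8 lower and 2 higher. Elovl6, which elongates the product of Fasn, had log2 signals of 11.42, 12.52 and 11.94 in the EKO tumours, against 13.11, 12.57 and 12.63 in the WT tumours. All EKO values were below all WT values, with EKO replicate 2 almost level with WT replicate 2 (difference -0.81, SE 0.282, unadjusted p = 0.0237, limma adjusted p = 0.644). Pgd, an NADPH-producing enzyme of the pentose phosphate pathway, went the other way, at 11.66, 11.78 and 11.87 in the EKO replicates, against 11.45, 11.34 and 11.31 in the WT replicates. Its groups lay clearly apart, with EKO replicate 2 beside the other EKO tumours (difference 0.40, SE 0.0923, unadjusted p = 0.0032, limma adjusted p = 0.576).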

How the data were processed

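Total RNA from digested skin tumours of 3 EKO and 3 WT mice was hybridised to Affymetrix 3' arrays. Sample titles gave the group and number of each biological replicate. The deposited values are log2 signals. The submitters' processing notes name RMA and Partek 6.6, with no settings. RMA normalizes quantiles between arrays and narrows differences near the floor. No scan or hybridisation batch is named in the labels. P-values set the difference between the groups against the spread of these samples within groups, moderated over all genes.

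Of 45101 probe sets, 64 controls, 932 with several symbols and 9160 unnamed here were left out. The other 34945 gave 18193 genes by the probe set with the highest mean. EKO was compared with WT by a two-sided limma test (lmFit, eBayes; limma 3.58.1, R 4.3.3), adjusted over all genes. No filter on low values was set, and all 32 genes lay in the upper 50% of means. For 3 against 3 arrays an exact permutation test cannot go below 0.1, so none was used. The number of arrays limits the precision. The members, lists and tests were chosen with earlier results of these data known. Named were all measured members, with values in every array for the 3 of each step with the smallest p and for Srebf1, Srebf2, Insig1 and Abca1, and the 2 of each wider list with the smallest p. Further genes and probe sets were named after their values were seen. The alternatives were a replicate block, leaving out each array, the mean over a gene's probe sets, array weights, genes in the upper 50% of means only, arrays centred on their medians, quantile normalization once more, and robust variances with an intensity trend.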

Additional observations from a re-analysis of the deposited data

How the results depend on the processing

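Under 13 alternatives to the fit with all arrays, 0 of 416 results for single genes of the list passed the limma threshold (smallest adjusted p = 0.182, Msmo1 without EKO replicate 2). In 388 of them the sign stayed, and 18 of 32 genes kept their sign under every one, among them Msmo1, Sc5d, Sqle, Cyp51, Nsdhl, Insig2, Abca1, Npc2, Abcg1, Acly, Acss2 and Fasn. With an array left out, the genes with an unadjusted p under 0.05 numbered 0 to 9 of the list, against 4.61% to 9.9% of all genes. Those without overlap between the groups numbered 4 to 20 of the 32, against 19.2% to 26.8% of all genes. The wider pathway genes with an unadjusted p under 0.05 numbered 1 to 12 of 41, and those past the threshold among all genes 1 to 42. The highest of these counts came in each case without EKO replicate 2. Without WT replicate 2 all genes gave 2. The medians then ran from -0.20 to -0.05 for the list, from -0.21 to -0.04 for sterol synthesis, from -0.20 to -0.0022 for SREBP control, from -0.34 to -0.07 for fatty acid synthesis and from -0.0398 to 0.13 for sterol transport, whose lowest value, without WT replicate 1, was the only negative one. With the mean over probe sets, the list had 1 higher and 2 lower genes at an unadjusted p under 0.05, in place of 0 and 3. That was 9.38% of the list, against 7.23% of all genes. With the replicate block, 2 genes of the list had an unadjusted p under 0.05, 6.25% against 6.18% of all genes, and 1 gene of all passed the threshold. The deviations of same-numbered arrays from their group means correlated with r = -0.07, -0.09 and -0.34, and those of other EKO and WT pairs with r from -0.19 to 0.26. With 3 arrays per group such values cannot tell whether same-numbered arrays were paired. Where an alternative changed a count, the cause was not tested.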
